A study of Mus musculus with 32 samples.

Results

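The receptors for hematopoietic growth factors are a set of 9 genes chosen by symbol: *Csf1r*, *Csf3r*, *Csf2rb*, *Csf2rb2*, *Csf2ra*, *Il3ra*, *Il6ra*, *Kit* and *Flt3*. All 9 were found among the 26560 genes of the Lin- expression table and the 25887 genes of the CD11b+ table. Their IGF2BP3 binding sites, the peaks named with the Ensembl gene identifier of a receptor, merged over libraries into 38 of 20608 regions in Lin- cells and 28 of 17735 regions in CD11b+ cells. The rule names the genes by symbol and uses no measured value.

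The cells came from the MLL-Af4 mouse leukemia model, in which a retrovirus carries the MLL-Af4 fusion. Lin- cells were lineage-depleted bone marrow cells transduced with MLL-Af4, selected with G418 and cultured with cytokines that included SCF, IL-6 and FLT3, among them factors that Kit and Il6ra bind. CD11b+ cells were taken by magnetic selection from splenic tumors of leukemic mice, and the headers of the peak lists of both cell types give names that begin with bm, which they do not explain. IGF2BP3 eCLIP, in which RNA crosslinked to the protein is immunoprecipitated and sequenced, was made in WT/MLL-Af4 cells. There were 6 Lin- libraries (3 biological and 3 technical replicates) and 4 CD11b+ libraries (2 biological and 2 technical), each with a size-matched input (smInput). RNA-seq was made in 3 wild type and 3 IGF2BP3 KO libraries of each cell type, where the KO is a germline deletion in *Igf2bp3*, and all groups carried MLL-Af4. The RNA-seq level used here is the authors' mean over both genotypes, which has no SD and allowed neither a comparison of genotypes nor a check of *Igf2bp3* per library.

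In mm10 the genes lie as follows. *Csf1r* (ENSMUSG00000024621) is on chromosome 18, 61100598 to 61132149, plus strand. *Csf3r* (ENSMUSG00000028859) is on chromosome 4, 126024550 to 126044440, plus strand. *Csf2rb* (ENSMUSG00000071713) and *Csf2rb2* (ENSMUSG00000071714) are neighbours on chromosome 15, at 78325752 to 78353847 on the plus strand and 78282507 to 78305721 on the minus strand. *Csf2ra* (ENSMUSG00000059326) spans 61223957 to 61228429 of chromosome 19, minus strand. *Il3ra* (ENSMUSG00000068758) is on chromosome 14, 14346275 to 14356011, plus strand. *Il6ra* (ENSMUSG00000027947) is on chromosome 3, 89864059 to 89913196, minus strand. *Kit* (ENSMUSG00000005672) and *Flt3* (ENSMUSG00000042817) are both on chromosome 5, at 75574916 to 75656722 on the plus strand and 147330741 to 147400489 on the minus strand.

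These receptors decide which external signals a blood progenitor can answer. Kit, Flt3 and Csf1r are receptor tyrosine kinases, bound by stem cell factor, FLT3 ligand and CSF1. Csf2ra and Il3ra are the ligand-binding chains for GM-CSF and IL-3 and signal with a common beta chain encoded by *Csf2rb*; its mouse paralog *Csf2rb2* encodes a beta chain for IL-3 alone. Csf3r binds G-CSF, and Il6ra binds IL-6 and signals through gp130. In normal hematopoiesis Kit and Flt3 mark stem and progenitor cells, while Csf1r, Csf2ra and Csf3r are known from monocytes, macrophages and granulocytes. IGF2BP3 is an RNA-binding protein for which CA-rich sequence has been described as a binding element.

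The RNA-seq levels divided the receptors by cell type. *Flt3* and *Kit* were among the most abundant messages of Lin- cells, with mean normalized counts of 9396 and 6974 and ranks of 424 and 701, and stood at 389.7 and 673.1 in CD11b+ cells, with ranks of 8008 and 6047. *Csf2ra* went the other way, with a mean of 1477 and rank 4785 in Lin- cells against 13039.0 and rank 169 in CD11b+ cells. *Csf1r* had the best CD11b+ rank, 139, with a mean of 15007.9, and ranked 557 in Lin- cells with 7910. The tables were normalized separately, and over 14658 genes with a mean of at least 10 in both the median ratio of CD11b+ to Lin- was 0.609. Beside that median, the ratio of CD11b+ to Lin- was 8.83 for *Csf2ra*, 0.0965 for *Kit* and 0.0415 for *Flt3*, and between 1.39 and 1.93 for the other 6 receptors. These are pooled values without replicates, and no test was made on them.

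Per kilobase of annotated exon, which allows levels of different genes to be set side by side within a table, the Lin- order began with *Flt3* (2569), *Csf1r* (1619) and *Kit* (1328) and ended with *Il3ra* (514.4) and *Il6ra* (274.1). The CD11b+ order began with *Csf2ra* (7010), *Csf1r* (3072) and *Csf2rb* (1717) and ended with *Il6ra* (395.5), *Kit* (128.1) and *Flt3* (106.6). *Il6ra* was therefore the lowest receptor of Lin- cells on this measure and stood above only *Kit* and *Flt3* in CD11b+ cells. The length counts the exons of all annotated transcripts of a gene, and at 8.64 kb that of *Il6ra* was the longest of the receptors. Which transcripts the cells used was not tested, so a shorter message would raise the place of *Il6ra*. With no replicate values, it is not known which neighbours in these orders differ beyond their spread.

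**Figure D1:**
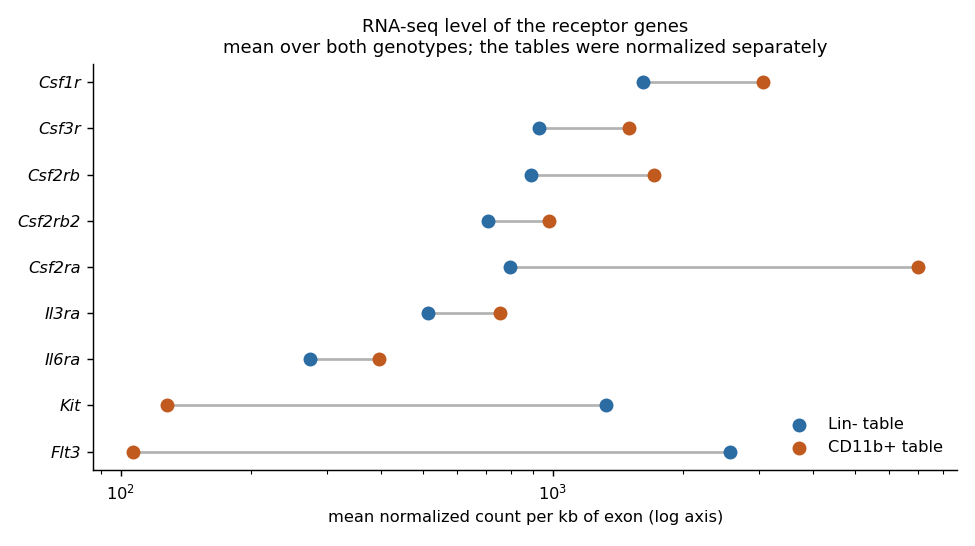
Mean normalized count per kilobase of exon on a log axis for each receptor in the Lin- table (blue) and the CD11b+ table (orange), without error bars because the values are the authors' means over both genotypes. *Kit* and *Flt3* are the receptors with the lower value in CD11b+ cells, at 128.1 and 106.6, and *Csf2ra* has the widest gap in the other direction, from 794.3 to 7010.

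The labels were set against markers. All 6 progenitor markers were present in both tables. *Cd34* stood at 9052 in Lin- and 1291 in CD11b+ cells, *Kit* at 6974 and 673.1, *Gata2* at 2176 and 536.5, and *Meis1* at 2452 and 356. *Mpo* was at 101211.6 and 84102.1, and *Elane*, at 14416.0 and 43055.0, was the only progenitor marker with the higher count in CD11b+ cells. Marker counts are given as listed and are not adjusted for the median ratio of 0.609 between the cell types. The myeloid markers *Lyz2* (72145.7), *S100a8* (39347.9) and *Ly6c2* (15841.4) were abundant in CD11b+ cells, and stood at 20990.1, 2083 and 4138 in Lin- cells. *Itgam*, which encodes CD11b itself, was listed at a mean of only 17.0 in CD11b+ cells. It nevertheless held 11 merged regions and a peak in all 4 CD11b+ eCLIP libraries, and its level was not analysed here for Lin- cells. In the CD11b+ table the 4 B cell markers summed to 372.4 and the 3 T cell markers to 13.6, the erythroid marker *Hbb-bs* stood at 1083, and of the 3 stromal and endothelial markers only *Pecam1*, which myeloid cells also express, exceeded 100. In Lin- cells the megakaryocyte markers summed to 2389, of which *Itga2b* gave 1922. The part of these other cell types in the receptor levels was not tested, and in bulk samples fewer cells of a type and less RNA per cell cannot be told apart.

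IGF2BP3 peaks were found in 8 of the 9 receptors in Lin- cells and in 7 of 9 in CD11b+ cells. Of all genes in the tables, 26.5% (Lin-) and 25.6% (CD11b+) had at least 1 filtered peak in any library, and among genes with a mean of at least 10 the shares were 39.8% and 37.1%. Peaks were more frequent in abundant messages, so the receptors are better read against genes of their own level. When genes with a mean of at least 10 were ranked into 10 equal groups by level, the 4 groups that held receptors in Lin- cells had peaks in 56.2% to 89.3% of their genes. The same share was 72.0% in the highest group of CD11b+ cells, which held 6 receptors, all with a peak. In CD11b+ cells *Flt3* and *Kit* belonged to groups in which 41.0% and 48.7% of genes had a peak, and neither had one. In Lin- cells *Csf3r* was the receptor without a peak, in a group in which 83.0% of genes had one.

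The filtered lists held 4040 to 10042 peaks per Lin- library and 7085 to 10054 per CD11b+ library, with 35663 to 233695 and 91587 to 161236 reads in peaks. Receptor peaks numbered 3 to 21 per Lin- library and 11 to 23 per CD11b+ library, or 7.43 to 26.6 and 15.5 to 30.3 per 10000 peaks. All of them lay within their gene and on its strand. The labels do not say which biological sample a technical library repeats. Across all genes, Lin- library 4 shared 62.9% of its peaks with library 1, library 5 shared 69.6% with library 2 and library 6 shared 59.9% with library 3, and CD11b+ libraries 3 and 4 shared 58.7% and 65.5% with libraries 1 and 2, in each case the highest share with a biological library. A site seen in such a pair alone was therefore not counted as seen in independent samples. A peak list holds only sites above the caller's threshold, so an absent peak is not an absence of binding.

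**Figure D2:**
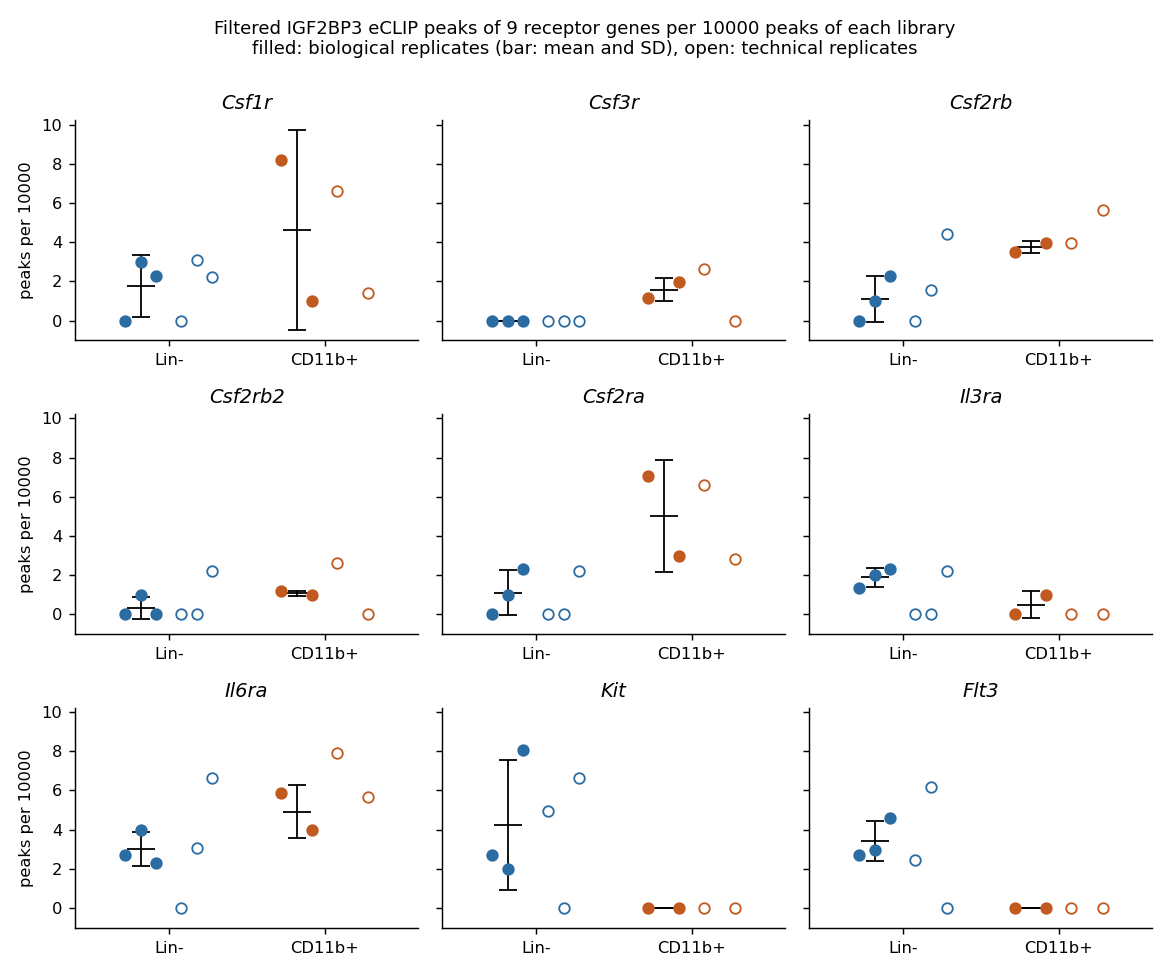
Filtered IGF2BP3 eCLIP peaks of each receptor per 10000 filtered peaks of the library, with biological replicates filled (bar and whiskers: mean and SD, n = 3 for Lin- and n = 2 for CD11b+) and technical replicates open. *Kit* and *Flt3* are at 0 in the 4 CD11b+ libraries, *Csf3r* is at 0 in the 6 Lin- libraries, and *Csf1r* has a wide CD11b+ spread, from 0.995 to 8.22.

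*Csf2ra*, the GM-CSF binding chain, carried the receptor peaks with the most reads. The first site lay in the 3' UTR in exon 12, inside a CA repeat with an unbroken run of 40 alternating bases. A stretch of 30 bases of it is shown because this repeat held the largest receptor peak of the series, and capitals mark the 6-mers ACACAC and CACACA.
Csf2ra 3' UTR repeat (chr19:61224509-61224538, minus strand): ACACACACACACACACACACACACACACAC
In CD11b+ libraries 1 to 4 the called peak at this repeat held 190, 171, 210 and 127 reads. In Lin- cells it held 10 reads in library 2 and 3 reads in library 3, and the other 4 libraries had no peak there. The lowest CD11b+ value was thus above the highest Lin- value. The smInput filter removed the peak from CD11b+ libraries 2 and 4, the libraries whose inputs also had a called peak there, of 9 and 12 reads. The other 2 CD11b+ inputs and the 6 Lin- inputs had none. A long repeat can also draw reads from other copies of the same sequence, and its part in these counts was not tested.

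A further pair of *Csf2ra* sites was intronic and had no CA 6-mer. The site in intron 8 (chr19:61225653-61225727 in CD11b+ cells), with its centre 38 nt upstream of an exon start, held 116, 72, 79 and 40 reads in CD11b+ libraries 1 to 4 and 7 reads in Lin- library 3 alone. The site in intron 6 (chr19:61226054-61226139), 42 nt upstream of an exon start, held 77, 64, 86 and 37 reads in the CD11b+ libraries and was not called in Lin- cells. Both intronic sites were present in all 4 CD11b+ libraries. After the filter, *Csf2ra* had 6, 3, 5 and 2 peaks in CD11b+ libraries 1 to 4 and 0, 1, 2, 0, 0 and 1 in Lin- libraries 1 to 6. These are called peaks, and a site can hold more than 1, since the CD11b+ peaks merged into 3 regions. In CD11b+ library 2 the 3 filtered peaks lay at the intronic sites alone. The message itself was at a mean of 13039.0 in CD11b+ and 1477 in Lin- cells, and whether the reads follow the amount of message was not tested.

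**Figure D3:**
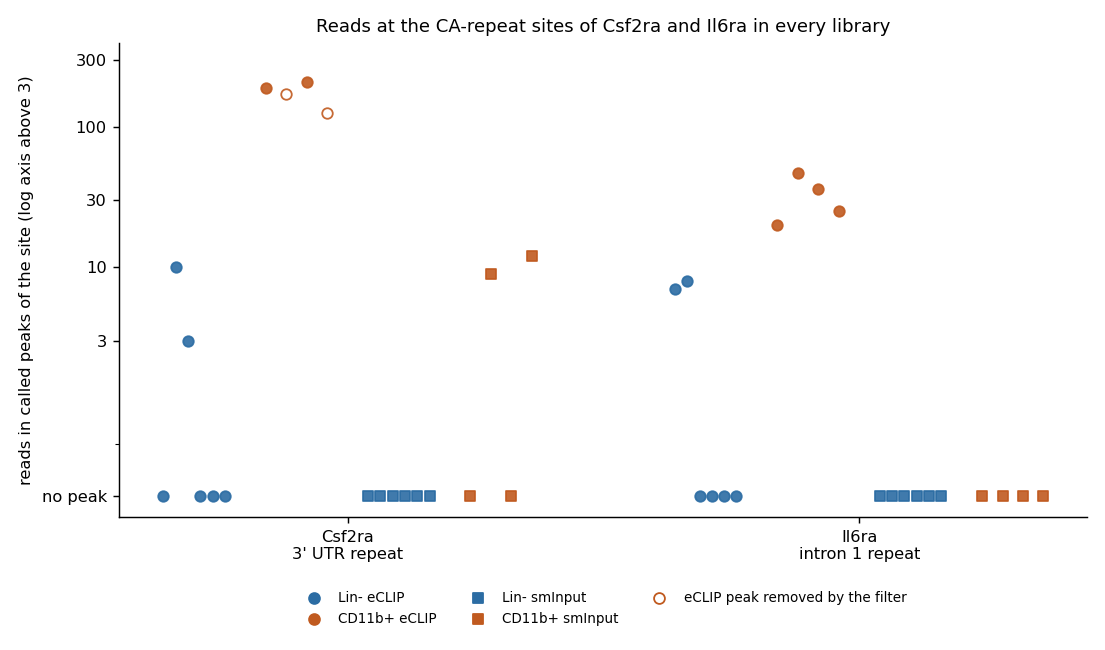
Reads in called peaks at the CA-repeat sites of *Csf2ra* (3' UTR) and *Il6ra* (intron 1) in each eCLIP library (circles) and smInput library (squares), on an axis that is logarithmic above 3 reads. Open circles are eCLIP peaks that the smInput filter removed, of 171 and 127 reads in *Csf2ra*, and the largest input peak held 12 reads.

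*Il6ra*, the IL-6 binding chain, had the most filtered peaks of any receptor over the 10 libraries, 32. A CA repeat of intron 1, the long first intron, is shown because it was called in all 4 CD11b+ libraries and in both cell types, and capitals again mark ACACAC and CACACA.
Il6ra intron 1 repeat (chr3:89911089-89911164, minus strand): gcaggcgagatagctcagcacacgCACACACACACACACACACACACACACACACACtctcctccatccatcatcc
This repeat, with a run of 33 alternating bases, held 20, 47, 36 and 25 reads in CD11b+ libraries 1 to 4, and 7 and 8 reads in Lin- libraries 1 and 2. The 4 CD11b+ libraries thus had more reads there than any Lin- library. Over the whole gene, the filter removed 1 of 5 called peaks in each of CD11b+ libraries 2 and 4. The *Il6ra* message had mean normalized counts of 3418 in CD11b+ and 2369 in Lin- cells.

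In intron 9, another *Il6ra* site (chr3:89876366-89876422) without a CA 6-mer held 27, 23 and 5 reads in CD11b+ libraries 1, 3 and 4, and Lin- libraries 2 and 6 had a peak in coding exon 1 (chr3:89912955-89913014) of 9 and 3 reads. Filtered peaks of *Il6ra* numbered 5, 4, 6 and 4 in the CD11b+ libraries and 2, 4, 2, 0, 2 and 3 in the Lin- libraries, so the number of peaks overlapped between the cell types.

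*Csf2rb* and *Csf2rb2* encode beta chains that are close paralogs, and the sequence they share bears on their peaks. Of the 50-base words of the *Csf2rb* transcript, 18.4% occurred unchanged in *Csf2rb2*, and with 30-base words the share was 28.8%. The most recurrent site of *Csf2rb* lay at the acceptor of intron 3, with its centre 19 nt upstream of the exon. It is shown with the exon in capitals, because all 76 bases also occur in *Csf2rb2*.
Csf2rb intron 3 acceptor (chr15:78336291-78336366, plus strand): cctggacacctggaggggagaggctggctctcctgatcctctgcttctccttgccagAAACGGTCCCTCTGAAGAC
A peak at this site held 9, 20, 9 and 9 reads in CD11b+ libraries 1 to 4 and 5, 5 and 7 reads in Lin- libraries 2, 3 and 5. No peak was named for *Csf2rb2* at its copy. Reads that lie within the copies cannot be told apart by their sequence, and whether flanking bases differ was not tested, so this site is uncertain as a *Csf2rb* site.

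The 3' UTR sites of the paralogs also resembled each other. In *Csf2rb* the site (chr15:78349317-78349373, exon 15) held 21, 14 and 16 reads in CD11b+ libraries 1, 2 and 3, and in *Csf2rb2* the site (chr15:78283998-78284130, exon 14) held 30, 7 and 31 reads in the same libraries. Neither was called in CD11b+ library 4 or in Lin- cells. The longest stretch common to both regions was 29 bases, shown because it carries no CA 6-mer and consists of pyrimidines apart from a single base.
Csf2rb and Csf2rb2 shared 3' UTR stretch: ttttctcttccccctctgtccctcttccc
*Csf2rb* had a further site in intron 4 (chr15:78338425-78338478), in a repeat of GT, with 7, 8, 5 and 7 reads in the CD11b+ libraries and none in Lin- cells. A stretch of 34 of its 54 bases also occurs in *Csf2rb2*, where a GT region (chr15:78294857-78294897) held 6 reads in 1 CD11b+ library. In Lin- cells a *Csf2rb* region (chr15:78341298-78341344) and a *Csf2rb2* region (chr15:78296951-78296975) occur in full in the other gene. The paralog to which such peaks belong is therefore uncertain too. Filtered peaks numbered 3, 4, 3 and 4 for *Csf2rb* and 1, 1, 2 and 0 for *Csf2rb2* in the CD11b+ libraries, against 0, 1, 2, 0, 1 and 2 and 0, 1, 0, 0, 0 and 1 in the Lin- libraries. The mean normalized counts were 8975 and 4648 in CD11b+ cells and 4645 and 3352 in Lin- cells.

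*Il3ra*, the IL-3 binding chain, was the receptor other than *Kit* and *Flt3* with more peaks in Lin- cells, although its mean normalized count was 1313 there and 1929 in CD11b+ cells. Its sites were both at the 5' end of the gene. In the first intron of the transcript that starts furthest upstream (chr14:14346512-14346575) peaks held 4, 6, 10 and 10 reads in Lin- libraries 1, 2, 3 and 6 and 5 reads in CD11b+ library 2. A site in the 5' UTR of another transcript (chr14:14346737-14346792) held 8 and 12 reads in Lin- libraries 2 and 3. Filtered peaks numbered 1, 2, 2, 0, 0 and 1 in Lin- libraries 1 to 6 and 0, 1, 0 and 0 in CD11b+ libraries 1 to 4.

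*Kit* and *Flt3*, the progenitor receptor tyrosine kinases, had peaks in Lin- cells only, and all of their 10 and 8 regions there were intronic. *Kit* had 2, 2, 7, 2, 0 and 3 filtered peaks in Lin- libraries 1 to 6, and *Flt3* had 2, 3, 4, 1, 4 and 0. No CD11b+ library had a called peak in either gene, before or after the filter. Lin- library 5 lacked *Kit* peaks and library 6 lacked *Flt3* peaks, but each gene had at least 2 peaks in each biological replicate. The read numbers were low, with at most 11 reads in a *Kit* peak and 14 in a *Flt3* peak.

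Of the *Kit* regions 7 of 10, and of the *Flt3* regions 5 of 8, had their centre within 100 nt of an exon start, the 3' splice site of the intron. The share over all Lin- regions was 47.5%. Within the same distance of a 5' splice site lay 5 of the 10 *Kit* and 4 of the 8 *Flt3* regions, beside 33.2% of all Lin- regions. Some regions counted for both. A single library gave 7 of the 10 *Kit* regions and 4 of the 8 *Flt3* regions. The sites called in the most libraries are shown with exon bases in capitals, which place each region against the neighbouring exons.
Kit intron 11 acceptor (chr5:75641058-75641118, plus strand): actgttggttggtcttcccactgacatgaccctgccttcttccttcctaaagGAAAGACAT
Kit intron 18 (chr5:75652643-75652768, plus strand): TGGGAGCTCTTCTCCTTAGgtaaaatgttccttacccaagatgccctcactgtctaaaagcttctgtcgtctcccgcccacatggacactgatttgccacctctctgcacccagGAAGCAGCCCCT
Flt3 intron 3 acceptor (chr5:147375731-147375804, minus strand): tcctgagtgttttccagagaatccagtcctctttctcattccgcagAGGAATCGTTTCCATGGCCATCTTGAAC
The *Kit* intron 18 region held 11, 5, 10 and 5 reads in Lin- libraries 1, 2, 3 and 6. Merged over these libraries, it spanned the whole short intron, from the exon before it to the exon after. Its centre lay 45 nt from the exon before and 51 nt from the exon after. The *Kit* intron 11 site held 3, 11 and 3 reads in libraries 1, 3 and 4. The *Flt3* intron 3 site held 13, 10, 3 and 3 reads in libraries 1 to 4, with its centre 10 nt upstream of the exon. These 3 sites were each seen in at least 2 biological replicates, the *Kit* intron 18 and *Flt3* intron 3 sites in all 3.

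A single *Flt3* region carried the CA element. It is shown because 54 of its 58 bases fall in ACACAC or CACACA, in capitals, and it lies far from splice sites, 3320 nt upstream of the nearest exon start.
Flt3 intron 9 repeat (chr5:147361342-147361399, minus strand): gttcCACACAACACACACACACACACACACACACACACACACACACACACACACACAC
This repeat held 7 reads in Lin- library 2 and 9 in library 5, and a site in intron 20 (chr5:147338397-147338487) held 6 and 14 reads in the same libraries, which shared the most peaks with each other. The *Kit* regions held no CA 6-mer. The absence of *Kit* and *Flt3* peaks from CD11b+ cells stood beside mean normalized counts of 673.1 and 389.7 there against 6974 and 9396 in Lin- cells, and whether it follows from the level was not tested.

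**Figure D4:**
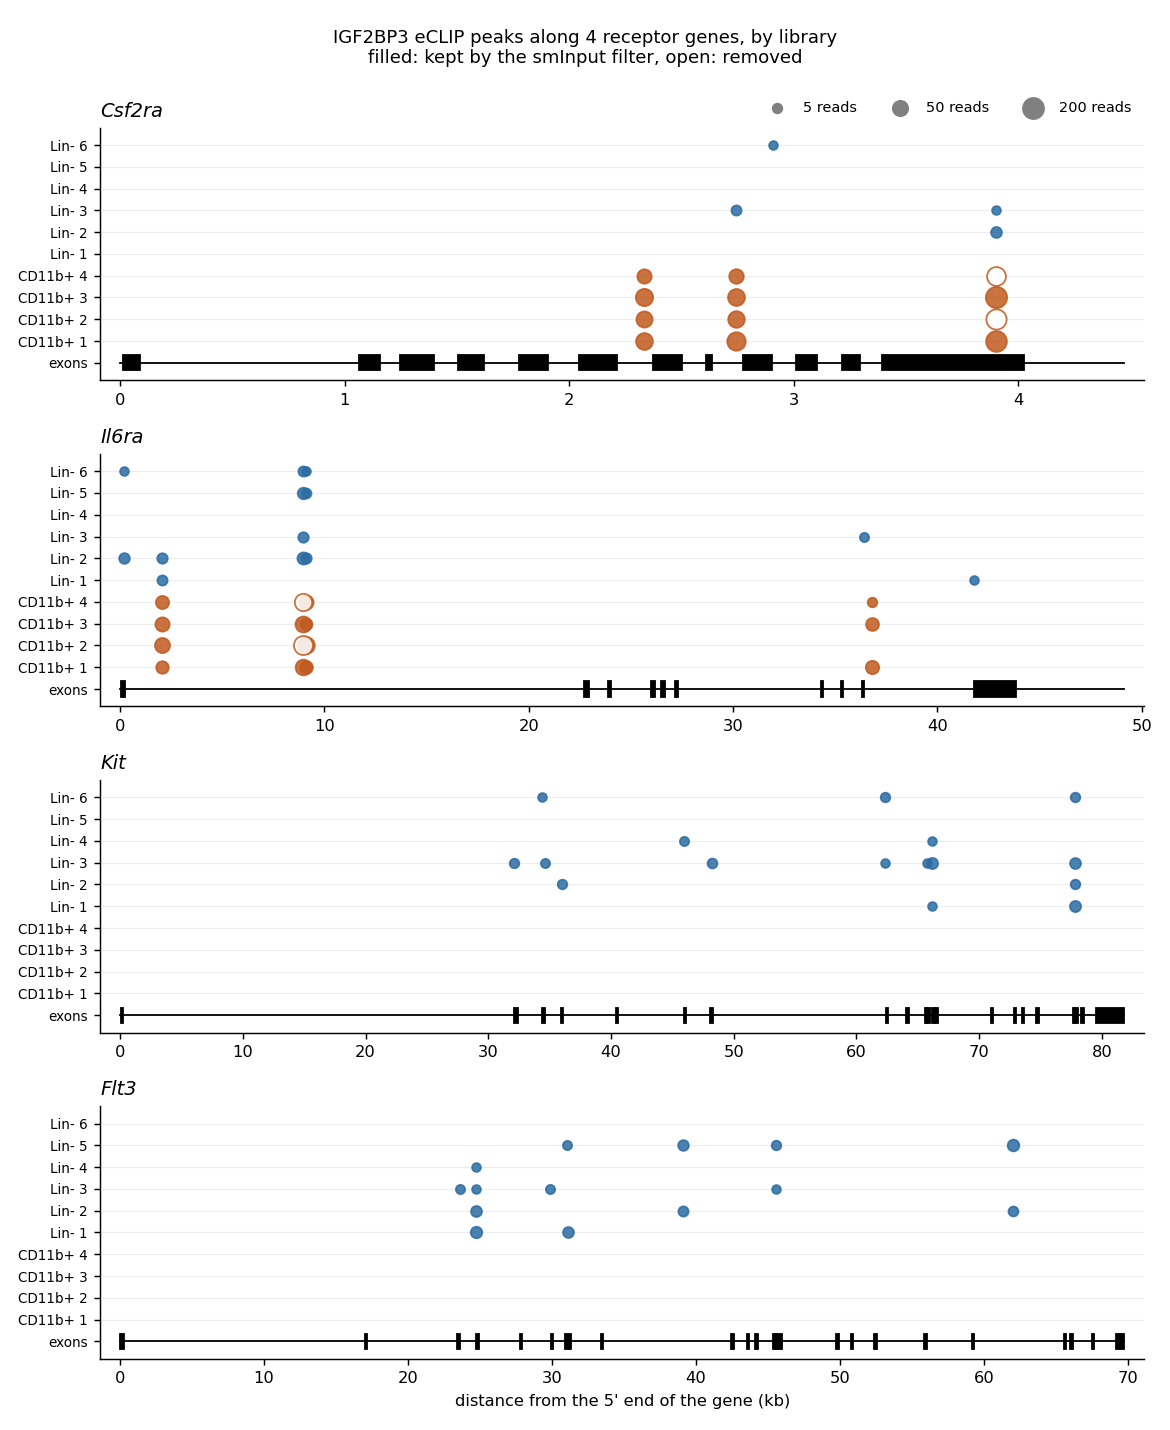
Called IGF2BP3 eCLIP peaks along *Csf2ra*, *Il6ra*, *Kit* and *Flt3* by library (rows), against distance from the 5' end of the gene in kilobases, with exons as black boxes, point area growing with the reads in the peak, and open circles for peaks removed by the filter. The *Csf2ra* and *Il6ra* sites recur across the CD11b+ libraries, at up to 210 reads in *Csf2ra*, while the *Kit* and *Flt3* peaks are spread over many introns in Lin- cells with at most 14 reads.

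*Csf1r*, the CSF1 receptor, had 7, 1, 5 and 1 filtered peaks in CD11b+ libraries 1 to 4 and 0, 3, 2, 0, 2 and 1 in Lin- libraries 1 to 6, so its values overlapped between the cell types. The high CD11b+ values came from libraries 1 and 3. Its largest site, in intron 10, held 33 and 35 reads in these libraries and was not called in libraries 2 and 4. A site in intron 12, 24 nt upstream of an exon, was the only *Csf1r* site in both CD11b+ biological replicates, with 10, 4 and 18 reads in libraries 1, 2 and 3. In Lin- cells a site in coding exon 10 held 7, 3 and 4 reads in libraries 2, 3 and 5, and it was not called in CD11b+ cells. Of the 9 CD11b+ regions 5, and of the 4 Lin- regions 3, had their centre within 100 nt of an exon start, beside 13.7% and 47.5% of all regions. A single library gave 6 of the 9 CD11b+ regions and 1 of the 4 Lin- regions.

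*Csf3r*, the G-CSF receptor, had 1, 2, 2 and 0 filtered peaks in CD11b+ libraries 1 to 4 and none in any Lin- library, with mean normalized counts of 5275 and 3250. Its recurrent site, in intron 3 (chr4:126028180-126028248), held 17, 7 and 30 reads in CD11b+ libraries 1, 2 and 3. Each of the other 2 sites was called in a single library, with 5 and 4 reads.

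The number of peaks per 10000 of the library was compared between cell types over biological replicates, 2 CD11b+ against 3 Lin-, with a two-sided exact permutation test. This design has 10 splits, so no p can fall below 0.1, and none of the 9290 genes tested reached an adjusted p under 0.696 after Benjamini-Hochberg correction over all of them. The replicate values did not overlap for 6 receptors. *Csf3r* (1.58 ± 0.577 in CD11b+ against 0 in each Lin- replicate), *Csf2rb* (3.75 ± 0.324 against 1.10 ± 1.16) and *Csf2ra* (5.01 ± 2.87 against 1.10 ± 1.16, mean ± SD) were higher in CD11b+ cells, a pattern shown by 10.6% of all genes tested. *Kit* (4.26 ± 3.31) and *Flt3* (3.44 ± 1.02), each against 0 in both CD11b+ replicates, and *Il3ra* (1.88 ± 0.481 against 0.497 ± 0.703) were higher in Lin- cells, a pattern shown by 9.34% of the genes. *Csf1r*, *Csf2rb2* and *Il6ra* overlapped. The shares of 10.6% and 9.34% count genes of every level, and a gene with a peak in a single replicate cannot show either pattern. The *Csf2rb* peaks include sites whose sequence is shared with *Csf2rb2*. Several *Csf2ra* peaks of a CD11b+ library can lie in 1 site. Whether the *Csf2ra* values stay apart when sites are counted, with or without technical libraries, was not tested. The exact permutation p was 0.1 for *Csf2ra*, *Csf3r*, *Flt3* and *Il3ra*, with an adjusted p of 0.696, and between 0.2 and 0.5 for the other 5, with adjusted p-values of 0.780 to 0.914. With the technical libraries added, 4 against 6, *Csf2ra* was the only receptor without overlap, at 2.82 or more in each CD11b+ library and 2.30 or less in each Lin- library, and 3.93% of all genes had that pattern. Its exact permutation p was then 0.00476, the smallest that 210 splits can give, with an adjusted p of 0.106, and over the other alternatives its adjusted p was 0.651 to 1, but technical libraries are not independent samples. Nothing in the labels says that biological replicates came from separate cultures or mice, so the p-values measure the spread between these libraries.

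Most receptor regions were intronic by their centre, 33 of 38 in Lin- cells and 25 of 28 in CD11b+ cells, or 86.8% and 89.3%, beside 77.5% and 83.7% of all regions. When any overlap with an exon counted as exonic, the intronic share became 31.6% (Lin-) and 71.4% (CD11b+), beside 36.4% and 74.3% of all regions, since many Lin- peaks crossed an exon boundary. The 3' UTR held 1 Lin- region, the *Csf2ra* repeat, and 3 CD11b+ regions, in *Csf2ra*, *Csf2rb* and *Csf2rb2*. Coding exons held 3 Lin- regions, in *Csf1r*, *Csf2rb2* and *Il6ra*, and no CD11b+ region.

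In Lin- cells 20 of 38 receptor regions, 52.6%, had a centre within 100 nt of a 3' splice site of their gene, beside 47.5% of all Lin- regions. In CD11b+ cells the count was 9 of 28, 32.1%, beside 13.7% of all CD11b+ regions. The share was thus lower in CD11b+ cells both for the receptors and for all regions, and the 9 CD11b+ regions belonged to *Csf1r* (5 regions), *Csf2ra* (2), *Csf2rb* (1) and *Csf3r* (1). Regions within 100 nt of a 5' splice site numbered 17 of 38 in Lin- and 4 of 28 in CD11b+ cells, beside 33.2% and 11.8% of all regions. These shares are descriptions, since regions of a gene are not independent.

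**Figure D5:**
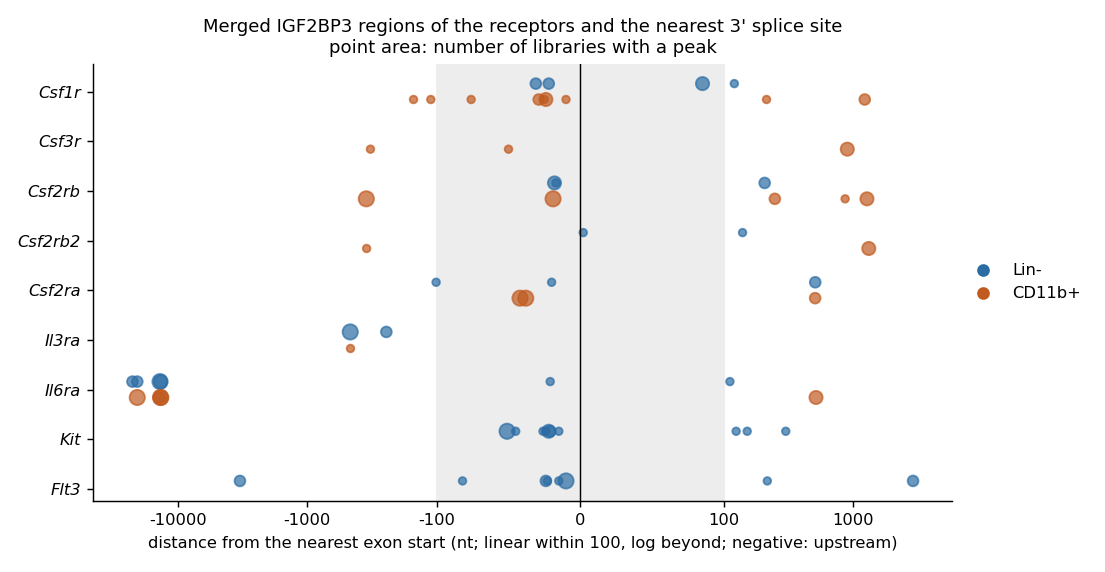
Distance of the centre of each merged receptor region from the nearest exon start (nt, linear within 100 and logarithmic beyond, negative upstream), for Lin- cells (blue) and CD11b+ cells (orange), with point area growing with the number of libraries. Of the Lin- regions 20 of 38, and of the CD11b+ regions 9 of 28, fall in the grey band of 100 nt, while the *Il6ra* repeat shown above lies 20657 nt upstream in CD11b+ cells.

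The CA 6-mers ACACAC or CACACA, searched on the strand of the gene, were present in 5 of 38 Lin- regions and 6 of 28 CD11b+ regions of the receptors, 13.2% and 21.4%, beside 8.35% and 17.0% of all regions. The matches came from *Il6ra* (3 Lin- and 4 CD11b+ regions), *Csf2ra* (1 in each), *Flt3* (1 in Lin-) and *Csf2rb* (1 in CD11b+). GTGTGT or TGTGTG, the same repeat read on the other strand, occurred in 1 Lin- and 3 CD11b+ regions, beside 8.09% and 24.0% of all regions.

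Recurrence is given within each cell type, because the numbers of libraries differ. In CD11b+ cells 11 of 28 regions were called in both biological replicates and 7 in all 4 libraries, in *Csf2ra* (2), *Csf2rb* (2) and *Il6ra* (3), and over all CD11b+ regions 19.2% were called in both biological replicates. In Lin- cells 10 of 38 were called in at least 2 of 3 biological replicates and none in all 6 libraries, beside 23.2% of all Lin- regions called in at least 2. Between the cell types 8 of the 38 Lin- regions, 21.1%, and 9 of the 28 CD11b+ regions, 32.1%, overlapped a region of the other, in *Csf1r*, *Csf2rb*, *Csf2ra*, *Il3ra* and *Il6ra*. The shares over all regions were 25.2% and 29.7%.

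The inputs held few receptor peaks. No receptor peak was called in the 6 Lin- inputs, and 3 were called in the 4 CD11b+ inputs, 2 in *Csf2ra* and 1 in *Il6ra*. The filter removed 0 of 69 receptor peaks in Lin- cells and 4 of 77 in CD11b+ cells, or 5.20%, beside 16.9% and 13.6% of all called peaks. The 4 removed peaks were 2 of *Csf2ra*, at its 3' UTR repeat, and 2 of *Il6ra*.

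The other genes of the pathway were counted by role, beside the 26.5% (Lin-) and 25.6% (CD11b+) of all genes with a peak. Of the genes in the 3 highest of 10 equal groups by level in Lin- cells, with means of 1404 or more, 71.6% to 89.3% had a peak. The same groups of CD11b+ cells, with means of 908.7 or more, had a peak in 60.2% to 72.0% of their genes. Transducers, the kinases, STAT factors and adaptors downstream of the receptors, had a filtered peak for 21 of 21 genes in Lin- and 18 of 21 in CD11b+ cells, where *Jak2*, *Stat5a* and *Ptpn11* had none. A peak in at least 2 biological replicates was found for 15 of 21 transducers in Lin- and 10 of 21 in CD11b+ cells. *Inpp5d*, which encodes the phosphatase SHIP1, had the most regions in Lin- cells, 14, and genes with 6 included *Stat3*, *Grb2*, *Fes*, *Pim1* and the adaptor gene *Sh2b3*. In CD11b+ cells *Inpp5d*, *Gab2*, *Lyn* and *Sh2b3* had 7 each. Of the 8 negative regulators 3 had a peak in each cell type, *Cbl* and *Sh2b3* in both, *Socs1* in Lin- and *Cblb* in CD11b+ cells. Of the 6 other receptors *Ifngr1* had peaks in both cell types and *Il6st*, which encodes gp130, in CD11b+ cells. Of the 8 ligands 7 were among the genes used for Lin- and 6 for CD11b+ cells, and peaks were named for *Kitl* in both and *Il34* in CD11b+ cells, at mean normalized counts of 4.73 or less. In Lin- cells the median of the mean normalized counts was 3393 for the transducers, 669.8 for the other receptors, 262.1 for the negative regulators and 4.73 for the ligands.

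The pattern of *Il6ra*, the receptor with the most peaks, was compared with that of 2422 genes with a peak in at least 6 libraries. Over the 10 eCLIP libraries, the peaks per 10000 of *Lfng* (Pearson r = 0.921), *D1Ertd622e* (0.896) and *Naip5* (0.890) were most like it. The libraries share their cell type and some of them a biological sample, so r is a description and no test was made.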

How the data were processed

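The authors deposited 1 expression table per cell type, made from strand-specific RNA-seq (submitters' processing notes: STAR 2.5.3a, Bowtie2, DESeq2, mm10). From each deposited table the signal used was the mean normalized count, which the authors scaled with DESeq2 and averaged over 6 libraries of both genotypes. The columns holding the authors' comparison of genotypes (fold changes, statistics and p-values) were not used. For eCLIP, the authors called peaks per library with CLIPper, with a p-value of at most 0.05 per the deposited files, and removed peaks found in smInput (filter FS1). Per the file headers, eCLIP and input libraries were deduplicated and called with different settings. The last field of a peak's name was taken as its number of reads, which the headers do not define.

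Peaks were given to genes by their identifier, and overlapping peaks of a gene were merged over the libraries of a cell type. Regions were placed by their centre in GENCODE M21 basic transcripts, and introns were numbered in the transcript with the longest coding sequence. Sequences are from RefSeq GRCm38.p6, the assembly behind mm10. Peaks per 10000 filtered peaks were compared by the exact permutation test over all genes with a peak, with Benjamini-Hochberg adjustment. The code (Python 3.11.15, pandas 2.3.3, NumPy 2.4.6) was tested on simulated peak counts. The 9 receptors and the lists of pathway and marker genes were chosen with earlier results of these data known. Named genes are the 9 receptors, the list genes with the most regions, list genes where 5 or fewer met a count, and the 3 genes most like the receptor with the most peaks. A precision is set by 2 or 3 biological replicates and peaks of few reads. Some results are not reported here. The tables hold no RNA-seq counts per library, so the depth behind each mean could not be computed.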

Additional observations from a re-analysis of the deposited data

Results flagged for a closer look

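In each cell type, the highest and the lowest library of every receptor were compared with the others by Dixon's criterion, over 30 groups of 4 or 6 libraries with peaks per 10000 peaks or reads per 10000 reads in peaks. The criterion marked 3 values. For normally distributed values chance marks about 1 group in 20, but that rate does not hold here, where many counts are 0. If all other libraries are at 0, a single peak is marked whatever its size. *Il3ra* had 0.995 peaks per 10000 and 0.310 reads per 10000 in CD11b+ library 2, with 0 in the other 3 CD11b+ libraries, from a single peak of 5 reads in the first intron. *Csf2rb2* had 0.841 reads per 10000 in Lin- library 6, beside 0.128 in the next highest library, from a single peak of 3 reads in coding exon 10. Both rest on 1 peak with few reads.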

How the results depend on the processing

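With 2 CD11b+ and 3 Lin- biological replicates no receptor could pass a test, and peaks of 3 to 20 reads make most counts imprecise. The number of receptors with a peak was 8 in Lin- and 7 in CD11b+ cells, and stayed at 7 or 8 and 6 or 7 with biological replicates alone, at least 2 biological replicates, unfiltered peaks, a peak value below 0.001, placement by coordinates or a replicate left out. The share of all genes with a peak was 39.8% and 37.1% over genes with a mean of at least 10, against 26.5% and 25.6% over all genes. Among the 9 differences per 10000 between cell types, only *Csf1r* turned its direction: leaving out each replicate in turn gave -0.77 to 6.45, with the low end without CD11b+ replicate 1. The receptors higher in CD11b+ cells without overlap, 3, became 1 with technical libraries added, beside 3.93% of all genes, 5 with reads in peaks (chosen after seeing the data), beside 13.6%, and 3 to 6 with a replicate left out. The count of 6 was without CD11b+ replicate 2, where 29.5% of all genes had that pattern. The receptors higher in Lin- cells without overlap, 3, became 0 with a peak value below 0.001 and 0 with technical libraries added, beside 8% and 2.26% of all genes. By any exon overlap, the intronic share was 31.6% in Lin- and 71.4% in CD11b+ cells. The replicate numbers 1 and 2 are shared by cultures and mice that the labels do not pair, and same-numbered libraries deviated with a correlation of -0.156 over 8742 genes. With the replicate block, the difference was 3.11 for *Csf1r*, and no receptor turned its direction. The block holds only replicates 1 and 2, so its differences repeat those without Lin- replicate 3 and are no further check. The causes were not tested.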
